A study of Equus caballus with 37 samples.

Results

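Blood transcriptomes of untrained Arabian horses (T0) were compared with those of Arabian horses in race training after the slow canter phase, sampled in March (T1). The libraries were chosen by the period in their labels, which gave 6 libraries of T0 and 12 of T1, 18 of the 37 libraries of the series. The other libraries were taken from trained horses after the intense gallop phase in May (T2, 11 libraries) and in October, when the races were over (T3, 8 libraries). The study followed trained horses over a season of flat racing to find training-related changes in blood gene expression. By sequencing it contrasted the untrained horses with T3, not with T1, and its qPCR of selected genes also covered the untrained horses. The question of the comparison here is how blood RNA of horses after canter conditioning differed from that of horses that had not been trained.

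All horses were of the Arabian breed, and the labels name no allele or agent that set the groups apart. By the labels, 5 T0 libraries came from horses of 2.5 years and 1 (T0 replicate 2) from a horse of 3 years, while all 12 T1 horses were 3 years old. The labels gave 2 females and 4 males in T0 and 5 females and 7 males in T1. By the study's methods, the horses belonged to a single stud, were kept and fed alike and were sampled at the same time of day before training. Jugular blood was collected into Tempus tubes, which lyse the cells, and libraries were made from total RNA with a TruSeq kit. The labels give no sampling month for T0 and name no horse, and some untrained horses were never trained. Training, age and season therefore cannot be told apart, and p-values measure the spread between libraries.

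Whole blood RNA is a mixture from cell types that include granulocytes, lymphocytes, monocytes and platelets. Its profile follows both the activity of genes in each cell and the proportions of cells, which shift with exercise, stress, age and season. Chromatin regulators set which genes are transcribed. Granzymes are proteases of cytotoxic lymphocytes, and major histocompatibility complex (MHC) molecules present peptides to T cells. In bulk samples like these, fewer cells of a type and less RNA per cell cannot be told apart. The count table names genes by Ensembl identifiers alone, so blood cell markers could not be looked up by symbol and the tissue label was not checked against them. Named here are the 74 genes whose identifiers the study prints, all of which are in the table and passed the filter on low counts. The study picked most of them as changed between T1 and T2, T2 and T3 or T0 and T3 in these same libraries. Their directions below are thus not independent evidence, and their counts are given beside the counts of all genes.

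Total gene counts were 10416083 to 11898485 per library in T0 and 3810631 to 14694001 in T1, with 14733 to 15148 genes detected in T0 and 11559 to 15208 in T1. The TMM factor, a scaling factor that edgeR computes to even out differences in RNA composition, was 1.3 to 1.36 in T0 and 0.455 to 1.28 in T1, with no overlap. In T1, 5 libraries (replicates 1, 2, 3, 4 and 11) stood apart, with factors of 0.455 to 0.788 against 1.04 to 1.28 in the other 7. These 5 libraries are called low-factor libraries below. The first principal component of log2 expression held 67.9% of the variance. Its scores were 62.7 to 72.3 in T0, -6.03 to 33.3 in the other 7 T1 libraries and -146 to -55.5 in the low-factor libraries. Of the low-factor libraries 4 were from females and 1 from a male, whereas of the other 7 T1 libraries 1 was from a female and 6 were from males. The 10 most abundant genes held 7.58 to 8.18% of counts in T0, 7.66 to 9.15% in the other 7 T1 libraries and 8.97 to 12.1% in the low-factor libraries. The median standard deviation of a gene's log2 expression was 0.226 in T0, 0.595 in T1 and 0.289 within the other 7 T1 libraries. Values for most named genes are given with all 18 libraries and with the 13 that remain without the low-factor libraries, in brackets or in the text. The mapping statistics of the study list a lower share of uniquely mapped reads in every T1 sample than in any T0 sample. If their sample numbers are those in the titles, the low-factor libraries also had lower shares than all other T1 libraries. On the same condition, replicates 1, 2, 3 and 4 shared a sequencing pool that held no T0 sample and no other T1 sample. Replicate 11 was then in a pool with T0 samples. The part that read mapping, sequencing pool, sex or the share of abundant genes had in this split and in the comparison of the periods was not tested.

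**Figure D1:**
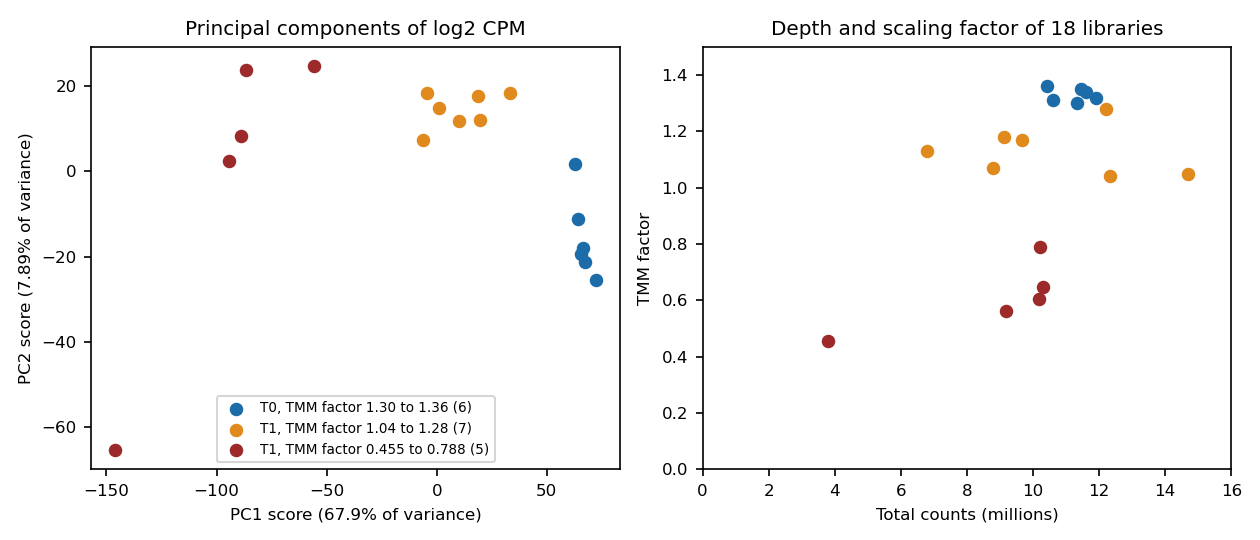
The left panel plots the scores of each library on the first and second principal components of log2 CPM, and the right panel the TMM factor against total counts. Points are the 6 T0 libraries and the 12 T1 libraries, of which the 5 with factors of 0.455 to 0.788 are dark red. The 3 sets follow each other along the first component without overlap, and the T1 library of 3810631 counts has the lowest score, -146.

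Expression differed between T0 and T1 in most of the genes tested when all 18 libraries were fitted. A gene was called differentially expressed at a Benjamini-Hochberg adjusted p below 0.05 from edgeR's quasi-likelihood test and a fold change of at least 1.3, and a positive log2 fold change means a higher level in T1. Of 11544 genes, 6708 (58.1%) were differentially expressed, 3340 (28.9%) higher and 3368 (29.2%) lower in T1. The change was at least 2-fold upwards in 1946 genes (16.9%) and downwards in 1940 (16.8%). In 940 genes (8.14%) every T1 library lay above every T0 library, and in 1673 (14.5%) every T1 library lay below. The median log2 fold change was -0.05 over all genes, and the median size among differentially expressed genes was 1.10. With library totals in place of TMM factors, 1420 genes (12.3%) were higher and 4494 (38.9%) lower, 51.2% of genes in all, so that 24.0% of the calls were higher against 49.8% with TMM factors, and the median of all genes was -0.56. Directions below are thus relative to the bulk of genes.

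Without the low-factor libraries, 5708 of 11526 genes (49.5%) were differentially expressed, 2923 (25.4%) higher and 2785 (24.2%) lower. Of these, 5341 were also called with all 18 libraries in the same direction, 79.6% of the larger set and 93.6% of the smaller. Among genes called in both fits, 0 turned direction. The median size of the change among the 5708 genes was 0.75. Among genes higher in T1, the median of the low-factor libraries lay beyond that of the other 7 T1 libraries, on the side away from T0, in 3150 of 3340 (94.3%). Among genes lower in T1 it did so in 3130 of 3368 (92.9%). Over all genes tested, the low-factor libraries all lay below the other T1 libraries in 1968 (17.0%). They all lay above them in 2118 (18.3%). Of the 74 genes, they did so in 9 and 14, so such a split was not particular to the genes named below. With the log2 TMM factor as a covariate, 2795 genes (24.2%) were past the threshold, 1254 (10.9%) higher and 1541 (13.3%) lower. This factor comes from the same counts and did not overlap between the periods. Fits with it, here and below, therefore cannot separate it from period, and calls may be lost for that reason alone. Direction also moved with expression level. Of 4 bins of 2886 genes each, in the bin with the lowest mean expression 15.4% were higher and 36.1% lower in T1, and in the bin with the highest 48.9% were higher and 13% lower.

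**Figure D2:**
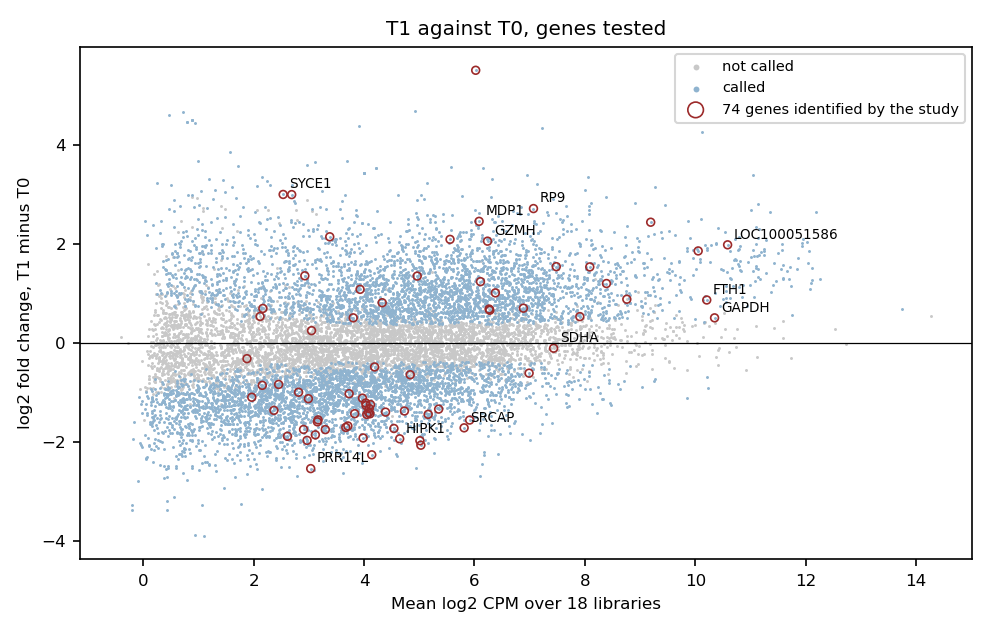
Each point is a gene tested, with its mean log2 CPM over the 18 libraries on the horizontal axis and its log2 fold change (T1 minus T0) on the vertical axis. Differentially expressed genes are blue, other genes grey, and red circles mark the 74 genes. Of the circled genes, those that fell (40) lie mostly at lower mean levels and those that rose (27) spread over all levels.

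Of the 74 genes, 67 were differentially expressed, 40 lower and 27 higher in T1, and the median log2 fold change was -0.85 against -0.05 over all genes. Without the low-factor libraries 41 were lower and 23 higher, and 63 of the 67 were called in the same direction. The exceptions were MYH3, LOC100050719, GTSF1 and GAPDH. All 12 T1 libraries lay below all T0 libraries in 31 of the 74 and above them in 7. Over all genes tested, 58.1% were differentially expressed, 29.2% lower and 28.9% higher in T1. Every T1 library lay below T0 in 14.5% of all genes and above it in 8.14%. The counts of each group below are to be read beside these shares. Levels are given below as CPM, counts per 1000000 of the TMM-scaled total, in the order lowest, median and highest library. A CPM of 1 rested on 1.73 reads in T1 replicate 11, the shallowest library after scaling, and on 15.7 in the deepest.

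Chromatin and transcription regulators formed the largest group. Of 16, 15 fell in T1 and 1 rose, against 29.2% and 28.9% of all genes. The median log2 fold change was -1.41, and the same 15 and 1 were called without the low-factor libraries (median -1.22). In 12 of them every T1 library lay below every T0 library, as in 14.5% of all genes. The deepest fall was that of PRR14L, a proline-rich protein. Its level was 20.6, 24.6 and 32.3 CPM in T0 and 1.95, 4.43 and 7.2 CPM in T1, a log2 fold change of -2.54 (standard error 0.23, edgeR adjusted p = 9.03e-07). The groups were well apart, low-factor and other T1 libraries overlapped, and without the former the change was -2.52. Its lowest T1 value, in replicate 3, rested on 13 counts.

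KMT2C, a histone methyltransferase, was at 67.8, 83.8 and 107 CPM in T0 and 9.71, 20.7 and 30.5 CPM in T1. Its log2 fold change was -2.07 (standard error 0.20, edgeR adjusted p = 9.03e-07), and -2.18 without the low-factor libraries, which lay within the range of the other T1 libraries. MBTD1, a reader of methylated histones and a gene of the study's qPCR, was at 15.4, 19.5 and 21.8 CPM in T0 and 1.8, 5.09 and 8.23 CPM in T1. It fell by 1.97 on the log2 scale (standard error 0.25, edgeR adjusted p = 1.21e-05, 13 libraries -1.6), with no overlap between periods. SRCAP, the ATPase of a chromatin remodelling complex, was at 125, 129 and 137 CPM in T0 and 18.8, 36.5 and 83.9 CPM in T1. Its log2 fold change was -1.72 (standard error 0.23, edgeR adjusted p = 1.93e-05, 13 libraries -1.55), and its T0 libraries were close together while T1 varied several-fold.

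Transcription factors showed the same direction. NFAT5, which drives the response to osmotic stress, was at 10.1, 13.7 and 18.5 CPM in T0 and 1.35, 3.59 and 7.17 CPM in T1, a log2 fold change of -1.89 (standard error 0.25, edgeR adjusted p = 1.92e-05, 13 libraries -1.98). FOXN2, a forkhead factor chosen for qPCR, was at 16.8, 20.1 and 23.4 CPM in T0 and 2.55, 5.26 and 10.3 CPM in T1. Its log2 fold change was -1.86 (standard error 0.23, edgeR adjusted p = 9.27e-06, 13 libraries -1.65), and all T1 libraries lay below T0 for both genes. ZFX, a zinc finger activator, changed by -1.44 over the 18 libraries and -1.26 over the 13. Of the parts of general transcription complexes, TAF1, the largest subunit of TFIID, changed by -1.38 over the 18 libraries and -0.95 over the 13, and its low-factor libraries (3.46 to 14.8 CPM) all lay below the other T1 libraries (20.5 to 35.2 CPM). TBL1X, a part of nuclear receptor corepressor complexes, changed by -1.26 over the 18 libraries and -0.98 over the 13. NCOA2, a nuclear receptor coactivator, changed by -1.44 over the 18 libraries and -1.26 over the 13. The Polycomb-related LOC100062658 changed by -1.12 over the 18 libraries and -0.91 over the 13, and the zinc finger gene ZNF814 by -1.36 over the 18 libraries and -0.98 over the 13. None of these 6 had a T1 library inside the T0 range.

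In ZNF618, ZFP91 and ZAB2 the periods overlapped. ZNF618 changed by -0.86 (standard error 0.27, edgeR adjusted p = 0.0117, 13 libraries -1.17). ZFP91, a zinc finger ubiquitin ligase, was at 20.8, 22.8 and 25.9 CPM in T0 and 10.6, 14.5 and 31.5 CPM in T1. Its low-factor libraries (17.3 to 31.5 CPM) lay above the other T1 libraries (10.6 to 14.9 CPM) and into the T0 range, and its log2 fold change was -0.48 over the 18 libraries and -0.78 over the 13. With all libraries its adjusted p was 0.0383 (edgeR), and the call was lost when any of 8 single libraries was left out (T0 replicate 6 or T1 replicates 5, 6, 7, 8, 9, 10 or 12), with changes of -0.47 to -0.41. ZAB2, named so by the study, changed by -0.61 (standard error 0.21, edgeR adjusted p = 0.0195, 13 libraries -0.62), and its call was lost without T0 replicate 5 (-0.54) or T0 replicate 6 (-0.55). The riser of the group was ANP32A, an acidic nuclear phosphoprotein that inhibits histone acetylation. Its level was 122, 151 and 166 CPM in T0 and 192, 324 and 948 CPM in T1, a log2 fold change of 1.54 (edgeR adjusted p = 0.00183). Its low-factor libraries (422 to 948 CPM) lay above all other T1 libraries, without them the change was 0.77, and with the log2 TMM factor as a covariate it was 0.31 and not called.

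Of 8 genes of membrane trafficking, the Golgi and the nuclear pore, 7 fell and 1 rose (29.2% and 28.9% of all genes). The median log2 fold change was -1.49, or -1.2 without the low-factor libraries. ATP13A3, a P-type ATPase that transports polyamines, was at 35.3, 57.9 and 63.9 CPM in T0 and 4.61, 12.2 and 19.2 CPM in T1. Its log2 fold change was -2.26 (standard error 0.26, edgeR adjusted p = 5.35e-06, 13 libraries -1.89), and every T1 library lay below T0. WDR7, which partners the vacuolar proton pump, was at 12.4, 17 and 19.8 CPM in T0 and 1.65, 4.95 and 6.95 CPM in T1, a log2 fold change of -1.75 (standard error 0.24, edgeR adjusted p = 2.24e-05, 13 libraries -1.41). TMED5, a cargo receptor of the early secretory pathway, was at 28.8, 31.8 and 40.6 CPM in T0 and 5.86, 12.6 and 17.3 CPM in T1, a log2 fold change of -1.41 (standard error 0.20, edgeR adjusted p = 2.83e-05, 13 libraries -1.18). In both genes the periods were apart. GOPC, a Golgi scaffold protein, changed by -1.56 over the 18 libraries and -1.22 over the 13. TRAPPC10, a subunit of a vesicle tethering complex, changed by -1.4 over the 18 libraries and -0.95 over the 13. POM121C, a nuclear pore gene with close paralogs whose reads may be shared, changed by -1.71 over the 18 libraries and -1.26 over the 13. GALNT7, an enzyme of O-linked glycosylation, was at 23.7, 32.4 and 36 CPM in T0 and 2.7, 12.7 and 26.4 CPM in T1, with an overlap between periods. It changed by -1.43 over the 18 libraries and -0.9 over the 13, and its low-factor libraries, at 2.7 to 5.71 CPM, lay below the others.

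MAP1LC3B, which marks autophagosome membranes, was the gene of this group that rose. Its level was 52.3, 59.4 and 67.6 CPM in T0 and 45.2, 88.5 and 205 CPM in T1, and the T0 range lay inside that of T1. The log2 fold change of 0.66 (edgeR adjusted p = 0.0362, 13 libraries 0.46) was close to the threshold. The call was lost in 8 of the 18 fits that left out 1 library (each T0 library in turn, and T1 replicates 1 and 2), where the change was 0.60 to 0.68.

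The 3 genes of kinase signalling all fell, with every T1 library below T0 (29.2% and 14.5% of all genes). Their median log2 fold change was -1.75 (-1.73 without the low-factor libraries). HIPK1, a nuclear kinase that phosphorylates transcription factors, was at 49.5, 57.1 and 75.9 CPM in T0 and 10.5, 16.1 and 21.3 CPM in T1. Its log2 fold change of -1.94 (standard error 0.16, edgeR adjusted p = 6.5e-07, 13 libraries -1.81) had the smallest p of the 74 genes. RICTOR, a defining subunit of an mTOR complex that activates Akt, was at 17.6, 21.4 and 26.7 CPM in T0 and 3.49, 6.32 and 9.96 CPM in T1. It changed by -1.75 (standard error 0.19, edgeR adjusted p = 2.59e-06), and by -1.73 without the low-factor libraries, whose values lay among those of the other T1 libraries. AKAP11, which anchors protein kinase A, changed by -1.43 over the 18 libraries and -1.0 over the 13. Its low-factor libraries (4.50 to 9.94 CPM) lay below the other 7 (13.4 to 22 CPM).

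RNA-binding and splicing genes were divided, with 2 of 4 lower and 2 higher. LARP4, which binds poly(A) tails and was measured by the study's qPCR, was at 14.2, 17.8 and 23.2 CPM in T0 and 2.91, 6.36 and 11 CPM in T1, a log2 fold change of -1.59 (standard error 0.23, edgeR adjusted p = 4.24e-05, 13 libraries -1.22). RBM27, an RNA-binding protein, changed by -1.33 (standard error 0.14, edgeR adjusted p = 2.49e-06, 13 libraries -1.18). SYF2, a factor of pre-mRNA splicing, was at 36.2, 38.6 and 48.1 CPM in T0 and 55.3, 86 and 156 CPM in T1, a log2 fold change of 1.24 (standard error 0.22, edgeR adjusted p = 0.000247, 13 libraries 0.92). RP9, a nuclear protein linked to splicing, was at 41.4, 49.2 and 55.2 CPM in T0 and 81.8, 138 and 821 CPM in T1. The 4 genes had no T1 library within the T0 range. RP9 rose by 2.72 (standard error 0.56, edgeR adjusted p = 0.000759), but its low-factor libraries held 329 to 821 CPM against 81.8 to 146 CPM in the other 7, and without them the change was 1.29 (edgeR adjusted p = 5.48e-06).

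Of the 2 glycerophospholipid acyltransferases, enzymes of membrane lipid synthesis, 1 fell. ENSECAG00000016106, printed by the study as AGPAT5 and also as AGPAT1, was at 4.25, 5.71 and 7.48 CPM in T0 and 1.47, 2.82 and 4.08 CPM in T1, with no overlap. Its log2 fold change was -1.1 (standard error 0.22, edgeR adjusted p = 0.000644, 13 libraries -0.86), on as few as 6 counts in T1 replicate 11. LPGAT1 was at 32.6, 46.5 and 76.5 CPM in T0 and 6.34, 14.5 and 106 CPM in T1. Here 8 T1 libraries held 6.34 to 15.6 CPM and 4 (replicates 7, 8, 9 and 11) held 50 to 106 CPM, and the log2 fold change of -0.64 was not significant (edgeR adjusted p = 0.293, 13 libraries -0.33).

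Surface receptors differed in direction, with 2 of 4 lower, 1 higher and 1 not called. The gene printed as LY5, of a lymphocyte antigen family, was at 71, 88.7 and 115 CPM in T0 and 5.77, 26 and 43.1 CPM in T1, a log2 fold change of -1.98 (standard error 0.34, edgeR adjusted p = 0.000182). All T1 libraries lay below T0, the low-factor libraries at 5.77 to 13.3 CPM and the others at 25.9 to 43.1 CPM, and without the former the change was -1.44. P2RY14, a receptor for UDP-sugars, was at 10.6, 13.5 and 21.2 CPM in T0 and 0.979, 6.6 and 15.5 CPM in T1, and the periods overlapped. It changed by -1.13 (standard error 0.36, edgeR adjusted p = 0.0114) and by -0.68 without the low-factor libraries. With the log2 TMM factor as a covariate its value was -0.44 and it was not called. IL10RB, a chain of an interleukin receptor, was at 178, 193 and 201 CPM in T0 and 187, 288 and 388 CPM in T1. It rose by 0.53 (standard error 0.15, edgeR adjusted p = 0.00657, 13 libraries 0.43), but with library totals the value was -0.07. ACVR2A, an activin receptor, was at 2.62, 3.84 and 5.3 CPM in T0 and 1.05, 3.02 and 7.5 CPM in T1, and its log2 fold change of -0.32 was not significant (edgeR adjusted p = 0.368, 13 libraries -0.18).

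Of 3 genes of the cytoskeleton and adhesion, 2 fell and 1 rose. LIMS1, an adaptor at integrin adhesions, was at 26.3, 28.7 and 32.1 CPM in T0 and 5.23, 12.4 and 18.3 CPM in T1, without overlap, and changed by -1.21 (standard error 0.20, edgeR adjusted p = 0.000147, 13 libraries -0.89). NHSL2 changed by -1.03 over the 18 libraries and -0.71 over the 13, with an overlap between periods. MYH3, an embryonic myosin heavy chain of muscle, was at 2.89, 4.33 and 6.84 CPM in T0 and 4.67, 7.16 and 35.4 CPM in T1. Its change was 1.36 (standard error 0.47, edgeR adjusted p = 0.0197), but without the low-factor libraries it was 0.42 and not called (adjusted p = 0.139, edgeR).

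**Figure D3:**
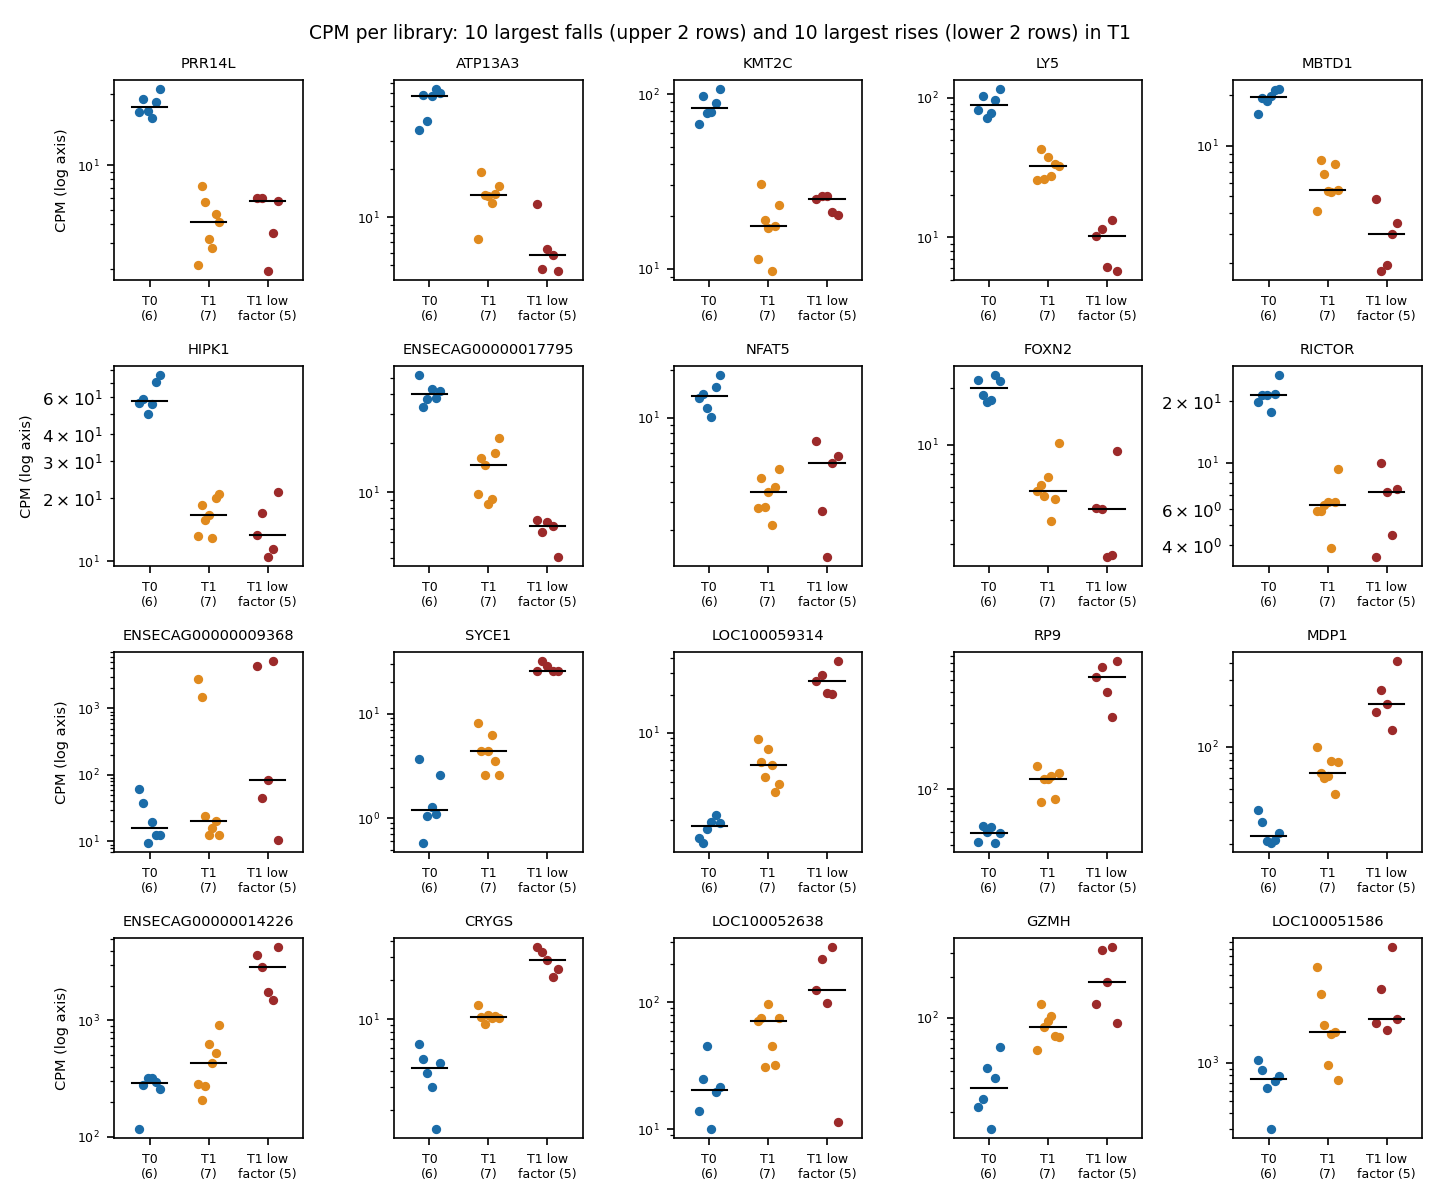
Each panel shows the CPM of 1 gene on a log axis, with a point per library for T0, the other 7 T1 libraries and the 5 low-factor T1 libraries, and a line at the median. The 10 genes with the largest falls are in the upper rows, where no T1 point reaches the T0 points, and the 10 with the largest rises are in the lower rows, where the low-factor libraries lie highest in genes such as RP9 and SYCE1.

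Of 6 MHC orthologues, 4 rose in T1, 0 fell and 2 were not called, while 28.9% of all genes rose and 29.2% fell. The median log2 fold change was 1.37, and 4 rose without the low-factor libraries (median 0.93). None of the 6 separated the periods. These genes are highly polymorphic and similar to each other, so the counting of their reads is uncertain. LOC100051586, class I-like, was at 299, 751 and 1060 CPM in T0 and 730, 2030 and 8180 CPM in T1. It rose by 1.98 (standard error 0.46, edgeR adjusted p = 0.00176), or 1.73 without the low-factor libraries. ENSECAG00000015782 was at 210, 539 and 750 CPM in T0 and 486, 1470 and 4560 CPM in T1, a log2 fold change of 1.86 (standard error 0.43, edgeR adjusted p = 0.00176, 13 libraries 1.12). Here the low-factor libraries (1800 to 4560 CPM) lay above the other T1 libraries (486 to 1690 CPM).

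The class I-like gene ENSECAG00000009368 had the largest log2 fold change of the 74 genes, 5.51 (standard error 1.67, edgeR adjusted p = 0.00873, 13 libraries 4.64). It was at 9.45, 16 and 61.1 CPM in T0 and 10.4, 34.6 and 5120 CPM in T1. This difference rested on 4 T1 libraries, namely replicate 6 with 1480 CPM, replicate 5 with 2770 CPM, replicate 1 with 4390 CPM and replicate 4 with 5120 CPM. The other 8 held 10.4 to 83.8 CPM, about the range of T0, so the level took either of 2 ranges, and the T1 median of 34.6 CPM was within the T0 range. LOC100060531, class II-like, rose by 0.81 (standard error 0.31, edgeR adjusted p = 0.0291, 13 libraries 0.75), a call lost when any of T0 replicates 1 to 4 was left out (0.73 to 0.76). The log2 fold change of ENSECAG00000021750 was 0.88 (standard error 0.39, edgeR adjusted p = 0.0556, 13 libraries 0.5) and that of ENSECAG00000016428 was 0.69 (standard error 0.35, edgeR adjusted p = 0.101, 13 libraries 0.59), and neither was called. The first of these passed the threshold when any of T1 replicates 7, 8, 9, 11 or 12 was left out (0.95 to 0.99), and the second without T1 replicate 11 (0.78).

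Of 6 cytotoxic, interferon and antiviral genes, 4 rose and 2 fell, and the median log2 fold change was 1.18. Without the low-factor libraries 3 rose and 2 fell (median 0.69), and with the log2 TMM factor as a covariate 1 rose and 2 fell. GZMH, a granzyme of cytotoxic lymphocytes, was at 14.9, 30.2 and 60.2 CPM in T0 and 57.8, 98 and 331 CPM in T1. Its T0 and T1 ranges overlapped narrowly, and it rose by 2.06 (standard error 0.42, edgeR adjusted p = 0.000671), or 1.44 without the low-factor libraries. The granzyme H-like LOC100052638 was at 10, 20.5 and 45.1 CPM in T0 and 11.5, 75.9 and 271 CPM in T1. It rose by 2.09 (standard error 0.53, edgeR adjusted p = 0.00291, 13 libraries 1.49), although T1 replicates 7 (30.9 CPM), 10 (31.9 CPM) and 11 (11.5 CPM, a low-factor library) were within the T0 range. The similarity of the 2 granzyme genes may split reads between them. APOBEC3Z2E, which restricts retroviruses, was at 44.5, 53.9 and 66.1 CPM in T0 and 61.5, 98.9 and 196 CPM in T1. It rose by 1.01 (standard error 0.23, edgeR adjusted p = 0.0017, 13 libraries 0.69). LOC100050719, like the antiviral membrane protein IFITM3, rose by 1.35 (standard error 0.42, edgeR adjusted p = 0.0106). Without the low-factor libraries its value was 0.69 and it was not called (adjusted p = 0.0646, edgeR). ENSECAG00000014696, of an interferon-activable family, was at 43.6, 55.1 and 64.4 CPM in T0 and 5.19, 14.7 and 34.5 CPM in T1, a log2 fold change of -1.73 (standard error 0.26, edgeR adjusted p = 5.69e-05, 13 libraries -1.38). ENSECAG00000023195, like TRIM25, changed by -1.25 (standard error 0.21, edgeR adjusted p = 0.000167, 13 libraries -1.03). Both had all T1 libraries below T0.

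Both ribosomal protein genes rose, the median log2 fold change being 2.10, or 1.28 without the low-factor libraries. RPL23A was at 127, 205 and 284 CPM in T0 and 181, 504 and 862 CPM in T1, with an overlap, and changed by 1.2 (standard error 0.31, edgeR adjusted p = 0.00314, 13 libraries 0.8). The ribosomal protein gene LOC100059314 was at 1.3, 1.79 and 2.19 CPM in T0 and 3.37, 8.16 and 37.5 CPM in T1, with no overlap. It changed by 3.0 (standard error 0.55, edgeR adjusted p = 0.000328), its low-factor libraries (20.4 to 37.5 CPM) lay above the others (3.37 to 8.88 CPM), and without them the change was 1.75. Ribosomal protein genes have many processed copies in mammalian genomes, so reads of these genes may be shared with copies.

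Of 8 further genes, listed as falling over the training periods, 7 were higher in T1 than in T0, 0 were lower and 1 was not called. Over all genes 28.9% were higher and 29.2% lower. The median log2 fold change was 1.21, or 1.0 without the low-factor libraries, where 6 were higher. SYCE1, a protein of the meiotic synaptonemal complex, was at 0.577, 1.19 and 3.68 CPM in T0 and 2.6, 7.26 and 31.7 CPM in T1, with an overlap. It changed by 3.0 (standard error 0.67, edgeR adjusted p = 0.00132), its low-factor libraries (25.4 to 31.7 CPM) lay above the others (2.6 to 8.23 CPM), and without them the change was 1.48. MDP1, a magnesium-dependent phosphatase, was at 20.4, 22.8 and 35.1 CPM in T0 and 46.2, 89.1 and 410 CPM in T1, without overlap. It rose by 2.46 (standard error 0.45, edgeR adjusted p = 0.000297), or 1.52 without the low-factor libraries. CRYGS, a crystallin of the eye lens chosen for qPCR, was at 1.42, 4.19 and 6.44 CPM in T0 and 9.19, 11.8 and 35.5 CPM in T1, without overlap, and rose by 2.15 (standard error 0.39, edgeR adjusted p = 0.000272), or 1.44 without the low-factor libraries. ANKZF1, a factor of ribosome quality control, changed by 1.54 over the 18 libraries and 1.06 over the 13. FTH1, the heavy chain of the iron store ferritin, was at 685, 785 and 932 CPM in T0 and 1050, 1370 and 2220 CPM in T1. Its change of 0.87 (standard error 0.18, edgeR adjusted p = 0.00082) was 0.93 without the low-factor libraries, and every T1 library lay above T0. In each of the other 6 that rose, the low-factor median was above that of the other T1 libraries. GTSF1 changed by 0.51 (standard error 0.21, edgeR adjusted p = 0.046, 13 libraries 0.24), but by -0.13 with library totals, and its call was lost in 10 of 18 fits that left out 1 library (T0 replicate 1, 3, 4, 5 or 6, T1 replicate 1, 2, 3, 4 or 11), with 0.40 to 0.54. C7orf50 was not called (0.54, edgeR adjusted p = 0.191), and its value was -0.16 without the low-factor libraries.

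**Figure D4:**
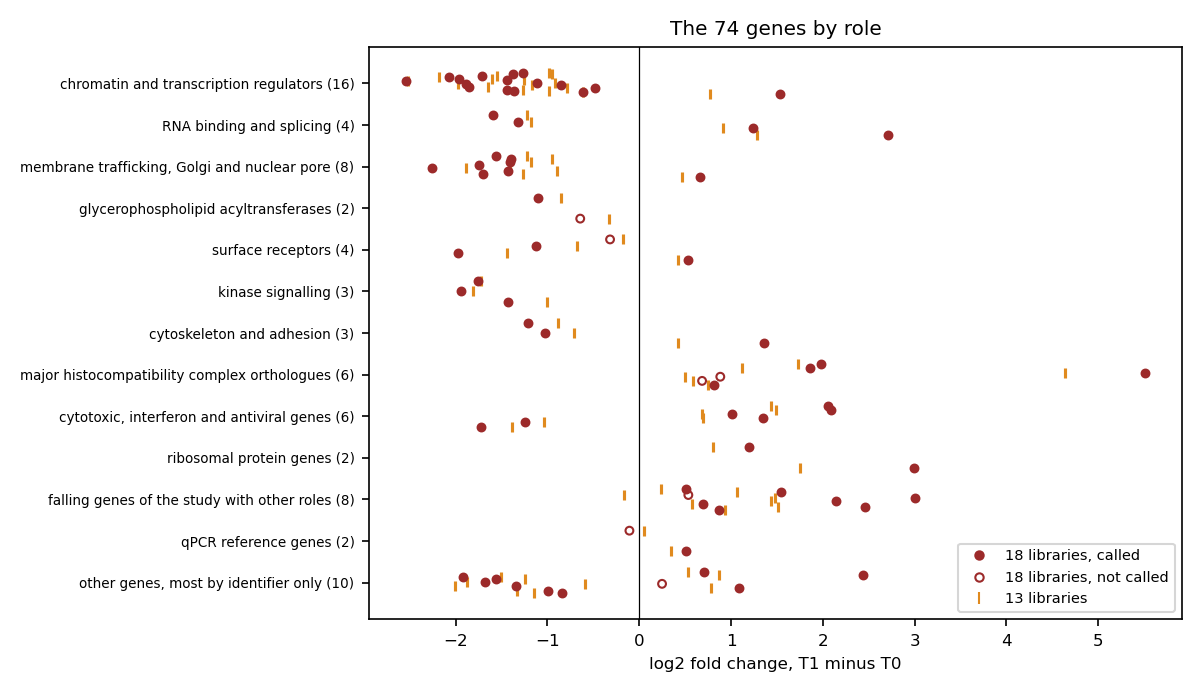
Each row is a group of the 74 genes with its size in brackets, and the horizontal axis is the log2 fold change, T1 minus T0. Red circles are values over 18 libraries, filled where differentially expressed, and orange ticks are values over the 13 libraries without the low-factor libraries. Of the chromatin group 15 of 16 lie left of 0, and the 6 MHC orthologues lie right of it. Ticks lie nearer to 0 than circles in most genes.

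The qPCR reference genes of the study differed from each other. SDHA, a subunit of succinate dehydrogenase, was at 162, 174 and 215 CPM in T0 and 122, 165 and 199 CPM in T1, and its log2 fold change of -0.11 was not significant (edgeR adjusted p = 0.504, 13 libraries 0.05). GAPDH, a glycolytic enzyme, was at 851, 1050 and 1240 CPM in T0 and 954, 1520 and 2130 CPM in T1. It rose by 0.51 (standard error 0.19, edgeR adjusted p = 0.0253), but without the low-factor libraries its change was 0.34, below the fold threshold, and with library totals it was -0.10. The call for GAPDH was also lost without T0 replicate 1 (0.43) or T0 replicate 3 (0.46). By qPCR relative to these reference genes, the study reports P2RY14 and LPGAT1 as higher during training than in untrained horses. It reports LARP4 and MBTD1 as highest in untrained horses. In the sequencing values above, all of these genes were lower in T1 than in T0, LPGAT1 not significantly. The qPCR statement covers the training schedule as a whole, and its fold changes against untrained horses are listed for T3 only. The periods compared thus differ as well as the methods. By sequencing against T0, P2RY14 changed by -0.99 in T2 and 0.43 in T3, and LPGAT1 by -0.56 and 0.12. Of these, only the fall of P2RY14 in T2 was called. The part of method and period in the difference for P2RY14 and LPGAT1 was not tested.

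Of the 10 genes left outside the groups above, most of them known by identifier only, 6 fell, 3 rose and 1 was not called. The study places ENSECAG00000012920 among defense proteins and cytokine receptors. That gene was at 70.9, 82.8 and 113 CPM in T0 and 104, 124 and 217 CPM in T1, and its log2 fold change was 0.7 (standard error 0.18, edgeR adjusted p = 0.00366, 13 libraries 0.54). ENSECAG00000017795 was at 32.9, 39.5 and 51.7 CPM in T0 and 4.04, 8.81 and 21.3 CPM in T1, with no overlap, a log2 fold change of -1.92 (standard error 0.27, edgeR adjusted p = 3.09e-05, 13 libraries -1.51). ENSECAG00000013923, the most abundant of the fallers, was at 119, 127 and 156 CPM in T0 and 11, 45.2 and 70.4 CPM in T1, with no overlap, and changed by -1.56 over the 18 libraries and -1.24 over the 13. In ENSECAG00000017946 and ENSECAG00000022043 the change was deeper without the low-factor libraries. The first changed by -1.34 over the 18 libraries and -2.01 over the 13, and the second by -1.0 over the 18 libraries and -1.33 over the 13. Among the fallers of all roles, 30 of 40 (75.0%) had a lower median in the low-factor than in the other T1 libraries, and among the risers 26 of 27 (96.3%) had a higher one. Over all genes called these shares were 92.9% and 94.3%. ENSECAG00000014226 was at 116, 289 and 322 CPM in T0 and 209, 774 and 4250 CPM in T1, and its change of 2.44 (standard error 0.65, edgeR adjusted p = 0.00394) was 0.87 without the low-factor libraries, which held 1490 to 4250 CPM. ENSECAG00000014186 was not called (0.25), and without the low-factor libraries it was lower in T1 (-0.6, edgeR adjusted p = 0.011).

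Outside the 74 genes, 2 rises and 2 falls were named among genes that the sources used here do not pair with a symbol. ENSECAG00000025265 was at 3.76, 4.15 and 9.99 CPM in T0 and 15.4, 63.7 and 425 CPM in T1, with no overlap, a log2 fold change of 4.68 (standard error 0.84, edgeR adjusted p = 0.00028, 13 libraries 2.77). ENSECAG00000016421 was at 0.712, 2.71 and 15.4 CPM in T0 and 8.87, 20.5 and 528 CPM in T1 and changed by 4.38 (standard error 1.17, edgeR adjusted p = 0.00403), or 2.11 without the low-factor libraries. ENSECAG00000008385 was at 7.15, 9.35 and 11.5 CPM in T0 and 0, 0.468 and 1.67 CPM in T1, and its T1 libraries held 72 counts in all, from 0 to 26 each. Its fitted log2 fold change was -3.9 (standard error 0.39, edgeR adjusted p = 1.32e-06, 13 libraries -3.72). ENSECAG00000017220 was at 2.2, 4.05 and 47.1 CPM in T0 and 0, 0.527 and 2.06 CPM in T1, with 0 to 32 counts in each T1 library and 0 in replicates 3 and 11, and a fitted change of -3.87 (standard error 0.63, edgeR adjusted p = 0.000119, 13 libraries -3.36). In both, all T1 libraries lay below T0. Of the 5 genes with the most counts, 2 rose. The most abundant held 1.68 to 2.50% of counts in T0 and 1.53 to 2.65% in T1 and was not called, while the fifth held 0.200 to 0.299% in T0 and 0.326 to 2.05% in T1, a log2 fold change of 2.64 (edgeR adjusted p = 0.00214).

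The levels in T1 were set beside those of later periods, with the same T0 libraries as the reference in each comparison. Between T0 and T2, 3900 of 11662 genes (33.4%) were differentially expressed, 17.0% higher and 16.5% lower in T2. Between T0 and T3, 2295 of 11696 (19.6%) were, 10.4% higher and 9.21% lower in T3. Of the 74 genes, 38 were lower and 16 higher in T2 than in T0, and 2 were lower and 2 higher in T3. The 40 genes lower in T1 had a median log2 fold change against T0 of -1.44 in T1, -0.93 in T2 and 0.20 in T3. Of these, 37 were differentially expressed in T2, and 3 in T3. The 27 genes higher in T1 had medians of 1.36, 0.65 and 0.10, and 16 of them were differentially expressed in T2 and 1 in T3. PRR14L changed by -2.54 in T1, -2.30 in T2 and 0.08 in T3. HIPK1 changed by -1.94, -1.38 and 0.37, and RICTOR by -1.75, -1.27 and 0.51. GZMH changed by 2.06, 1.39 and 0.57, and MDP1 by 2.46, 0.97 and 0.14. The exceptions in T3 were NCOA2 (0.66) and NHSL2 (1.08), which were higher than in T0, and APOBEC3Z2E (-0.63) and ENSECAG00000014696 (-0.51), which were lower. The 74 genes include those the study chose for a difference between T2 and T3 or T0 and T3, and their order over periods is a description. The study reports HIPK1 and RICTOR, among others, as significantly higher in T3 than in untrained horses. In the fit here neither was called (edgeR adjusted p = 0.231 and 0.121), although both values were above 0. The reason for this difference was not tested. Between T1 and T3, 7452 of 11471 genes (65.0%) were differentially expressed, 32.9% higher and 32.0% lower in T3, and of the 74 genes 40 were higher and 26 lower in T3.

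**Figure D5:**
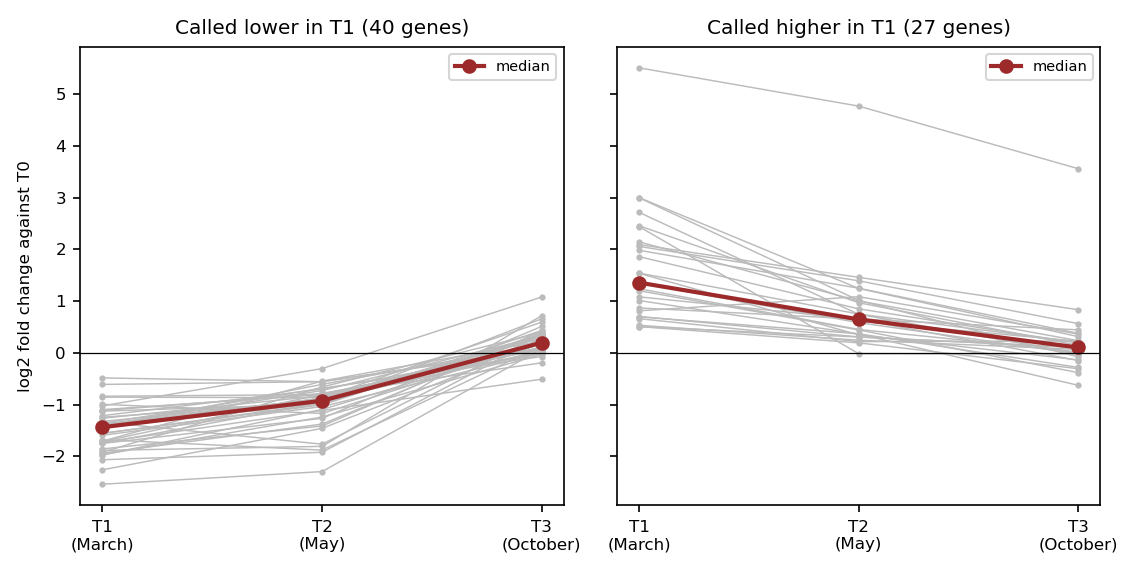
Log2 fold changes against the 6 T0 libraries are drawn for T1 (March), T2 (May) and T3 (October), for the 40 genes lower in T1 on the left and the 27 higher in T1 on the right. Grey lines are genes and the red line is the median, which runs from -1.44 through -0.93 to 0.20 on the left and from 1.36 through 0.65 to 0.10 on the right.

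Whether the change from T0 to T1 differed between females and males was tested with the interaction of sex and period. No gene passed an adjusted p below 0.05 (0 of 11544 in edgeR), the smallest adjusted p was 0.455, and 1050 genes (9.10%) had an unadjusted p below 0.05. T0 held 2 females, and on simulated data the test recovered 8% of 200 changed genes.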

How the data were processed

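Gene expression was measured by single-end RNA sequencing of jugular blood. The authors trimmed the reads with Flexbar, aligned them with STAR to the EquCab2 assembly and estimated counts per gene with RSEM, and the deposited table holds these counts as whole numbers for 26991 genes, without normalization. The authors' 3 smaller count tables, filtered for other comparisons, were not used. Coordinates and sequences were not analysed here.

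Libraries were grouped by the period in their titles. The test was that of edgeR 4.0.16 under R 4.3.3 (filterByExpr, TMM, quasi-likelihood F-test, Benjamini-Hochberg adjustment), fitting the 6 T0 and 12 T1 libraries only. Each standard error was taken from the fold change and its F statistic. No gene set was tested. The members and gene lists were chosen with earlier results of these data known. Named were the 74 genes with identifiers printed by the study, the 10 largest rises and falls among them at a mean of at least 50 counts, and 2 rises and 2 falls by identifier. Lists of 413 symbols without an identifier, blood cell markers included, could not be matched and were not analysed. Per the supplement of the study, the T0 samples were spread over fewer sequencing pools than the T1 samples, so pool and period cannot be fully told apart. The labels do not tie pools to single libraries, so no value within a pool is given. No 2 libraries of a period were duplicates. On simulated data for T0:T1, 200 of 11544 genes were changed. Of these the test recovered 8% at a fold of 1.5, 64% at 2, 84% at 3 and 96% at 4. It made 132 calls there, of which 4.55% were false. In the horse libraries 6708 genes were called, and the share of false calls among them was not tested.

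Alternatives were DESeq2 1.42.0, other or no scaling factors, no filter, all 37 libraries, sex, the number in the title, a surrogate variable (sva 3.50.0) or the log2 TMM factor as a term, limma 3.58.1 voom weights, abundant genes left out, thinned counts, other fold thresholds, and libraries left out. The values of 1 gene of the list are counted in its group and not reported here.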

Additional observations from a re-analysis of the deposited data

Results flagged for a closer look

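The T0 libraries were examined in the 74 genes and in the 2 rises and 2 falls named by identifier. In 6 of these genes a single T0 library lay far from the other 5 of its group by Dixon's criterion. Chance alone meets it in about 5% of groups, so several such genes would arise by chance. T0 replicate 5 held 40.6 CPM of TMED5 (28.8 to 32.6 in the others) and 24.3 CPM of LOC100060531 (11.5 to 16). T0 replicate 1 held 116 CPM of ENSECAG00000014226 (256 to 322 in the others) and 9.99 CPM of ENSECAG00000025265 (3.76 to 5.13). T0 replicate 2 held 15.4 CPM of ENSECAG00000016421 (0.712 to 4.06), and T0 replicate 6 held 47.1 CPM of ENSECAG00000017220 (2.20 to 10). The T1 group, of more than 10 libraries, was not examined in this way.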

How the results depend on the processing

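Over 17 alternatives chosen with the design, the number of differentially expressed genes ranged from 2795 to 7563 (6708 as reported), and it was within 1.5 times the reported number in 16. The exception was the log2 TMM factor as a covariate, with 2795 genes, 1254 higher and 1541 lower, and 9 of the 74 genes higher. The other direction counts that moved beyond 1.5 times came with library totals, where 1420 genes, 24.0% of the calls, were higher, and 14 of the 74 genes. Signs turned with library totals in IL10RB (-0.068), GTSF1 (-0.13), C7orf50 (-0.16), GAPDH (-0.10) and ENSECAG00000014186 (-0.54). With the TMM factor as a covariate they turned in C7orf50 (-0.43), SDHA (0.076) and ENSECAG00000014186 (-1.10), and without the low-factor libraries in C7orf50 (-0.16), SDHA (0.052) and ENSECAG00000014186 (-0.60). ENSECAG00000014186 was at -0.34 with the first surrogate variable and -0.53 with voom, where C7orf50 was at -0.043, and ACVR2A was at 0.0062 in thinned libraries. The cause was not tested. Leaving out 1 library at a time gave 6005 to 6973 genes, 3042 to 3547 higher and 2963 to 3430 lower (49.5 to 51.7% higher), 23 to 28 of the 74 genes higher and 38 to 40 lower, and 0 to 1 gene for the interaction of sex and period, the 1 without T0 replicate 6. Of the 67 of the 74 genes called, 61 kept their call in each of these 18 fits, and 41 in each alternative. A pairing of the libraries by the numbers in the titles was not seen, but the split within T1 could hide one. Correlations of deviations over 6 pairs were -0.105 to 0.126, with 1 over 0.1, and 0 libraries correlated best with their own number. A replicate block on these numbers gave 7115 genes. In an alternative chosen after seeing the data, the 5 low-factor libraries alone against T0 gave 8438 genes. Depth limited genes near 1 CPM most, since 1 CPM rested on 1.73 reads in T1 replicate 11.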
